A study of Homo sapiens with 8 samples.

Results

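MYC and 33 factors of ribosome biogenesis were followed in RNA sequencing of Panc 10.05, an established cell line from a human pancreatic ductal adenocarcinoma. The genes were taken from a list of names that was chosen with earlier results of these data known. A row of the count table belonged to the set when its gene symbol equalled a listed name. All 34 names were found among 58870 gene rows, and all 34 passed the filter on low counts that left 13860 genes for testing. The labels give 4 libraries from control cells of this line and 4 from cells of the same line with ELAPOR1 overexpression, called control and ELAPOR1 here. ELAPOR1 encodes the endosome-lysosome associated apoptosis and autophagy regulator 1. The vector, its promoter, the treatment of the control cells, the time of harvest and whether the cells were 1 clone or a pool are not given in the sources used here. Nor do the labels say whether the libraries of a group came from separate cultures, so p-values measure the spread between these libraries, which may be technical.

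MYC is a transcription factor that pairs with MAX and binds E-box sequences, of which CACGTG is the classical form. Genes for making ribosomes are among its best-known targets. RNA polymerase I copies the ribosomal DNA in the nucleolus into a long precursor, small nucleolar ribonucleoprotein particles (snoRNPs) modify it, and separate sets of processing factors cut and fold it into the RNA of the small and large ribosomal subunits. Cancer cells that grow fast usually have large nucleoli and high output of this pathway, and MYC is a central oncogene of pancreatic ductal adenocarcinoma.

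Most of the factors were moderately higher in ELAPOR1 libraries, while MYC itself did not pass the test. Of the 34 genes, 23 rose, 3 fell and 8 did not pass the test, which was edgeR's quasi-likelihood test with Benjamini-Hochberg adjustment over all tested genes and a threshold of 0.05. The same test called 44.7% of all tested genes, 22.6% higher and 22.1% lower, so that a call alone was common in this comparison. Among the 6712 tested genes at least as abundant as the lowest of the 34 genes, 58.0% were called, 31.2% higher and 26.8% lower. These shares are the background for every count by role or complex below. Log2 fold changes (ELAPOR1 over control) ran from -0.30 for POLR1D to 0.45 for RRP12, with a median of 0.21, against a median of 0.00087 over all tested genes and 0.015 over those 6712 genes. They were above 0 for 29 of the 34 genes, against 50.1% of all tested genes and 53.3% of the 6712. None of the 34 changed by as much as 1.5-fold.

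**Figure D1:**
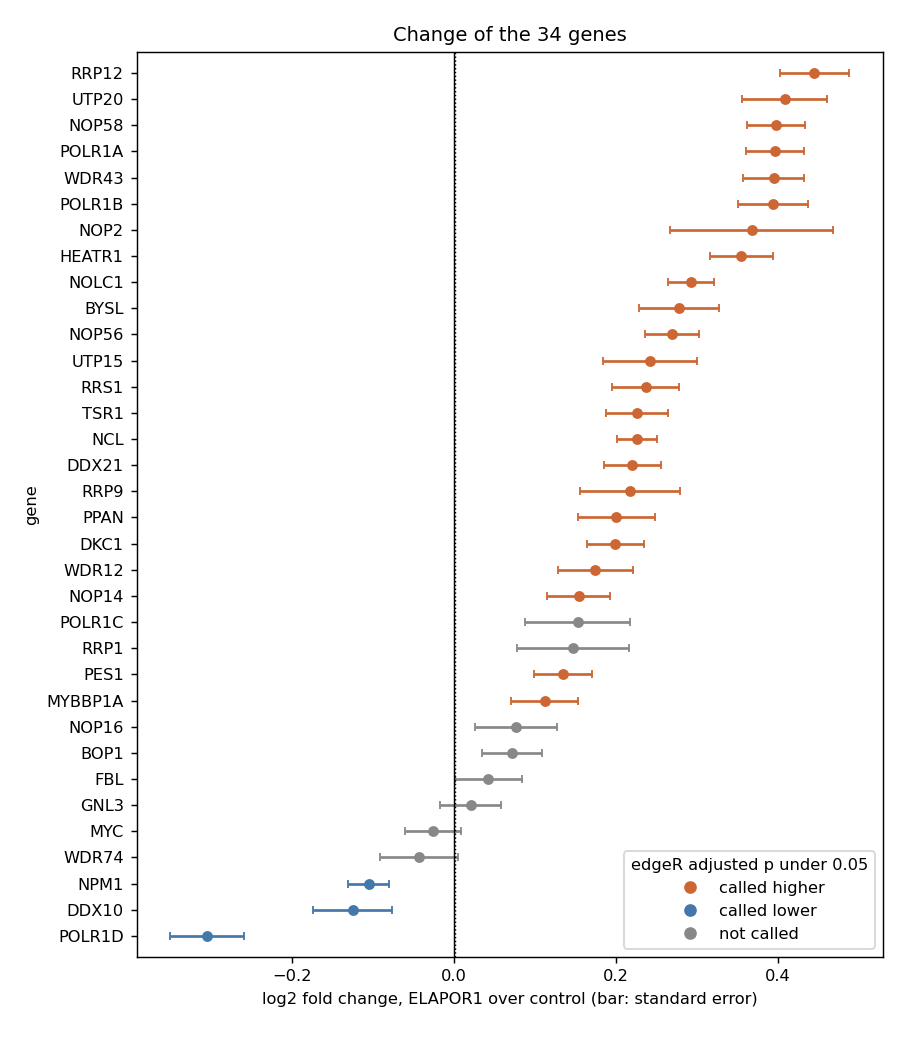
Log2 fold change of each of the 34 genes on the horizontal axis, ELAPOR1 over control, 1 row per gene in order of the change; points are edgeR estimates from 4 libraries per group, bars are standard errors and colours give the call at an adjusted p under 0.05. The 23 genes called higher lie between 0.11 and 0.45, and the 3 called lower are NPM1, DDX10 and POLR1D.

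Levels are given as counts per 1e6 sequenced (CPM) after scaling by the trimmed mean of M values, and CPM is a share of the RNA sequenced, so a change in total RNA per cell was not measured, and fewer cells with a transcript cannot be told apart from less of it per cell. In these units the groups did not overlap for 24 of the 34 genes. For 22 of them every ELAPOR1 library was above every control library, and for NPM1 and POLR1D every one was below. Over all tested genes 39.2% did not overlap, 20.0% being higher, and over the 6712 genes at least as abundant as the lowest of the 34 these were 51.7% and 27.7%. Summed over the 34 genes the level was 6280 ± 39.8 CPM in control and 6963 ± 81.1 CPM in ELAPOR1 libraries (SD, n = 4 each). As a share of all counts this was 0.624%, 0.622%, 0.618% and 0.626% in the control libraries and 0.708%, 0.704%, 0.692% and 0.699% in the ELAPOR1 libraries. The ELAPOR1 libraries were thus all above the control libraries, and they lay close to one another.

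Libraries held 13765509 to 17258166 counts in the ELAPOR1 group and 16558600 to 18128757 in the control group, and each of the 34 genes had 401 to 26264 counts in every library. ELAPOR1, listed under its older symbol KIAA1324, had 1, 1, 4 and 4 counts in the control libraries and 7006, 6422, 5910 and 7368 in the ELAPOR1 libraries, so all 8 libraries matched their labels in this gene. Of the ductal epithelial markers (KRT7, KRT8, KRT18, KRT19, EPCAM, CDH1 and MUC1), all 7 had a mean of at least 1 CPM. Their sum was 12009 to 13280 CPM in control and 11236 to 11579 CPM in ELAPOR1 libraries, but the markers did not move together. KRT8, KRT18 and MUC1 were called lower (log2 fold changes -0.16, -0.36 and -0.22). KRT7, KRT19 and CDH1 were called higher (0.31, 0.25 and 0.11), and EPCAM was not called (-0.025). Of 7 fibroblast markers only COL1A1 reached a mean of 1 CPM, and 3 were at 0 in every library (COL1A2, DCN and LUM). Of 4 endothelial markers only VWF reached it, with CDH5 at 0. Among immune markers CD3E was at 0, and CD68 fell from 84.4 ± 2.49 CPM in control to 75.7 ± 2.61 CPM in ELAPOR1 libraries (SD, n = 4 each; adjusted p = 0.0021 in edgeR). All 4 acinar markers (PRSS1, CPA1, CELA3A and CTRB1) were at 0. Summed levels ran from 2.95 to 4.38 CPM in control and 2.77 to 3.19 CPM in ELAPOR1 libraries for fibroblast markers, and from 1.62 to 2.13 and from 0.576 to 0.998 CPM for endothelial markers. The part of these differences in the results below was not tested.

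**Figure D2:**
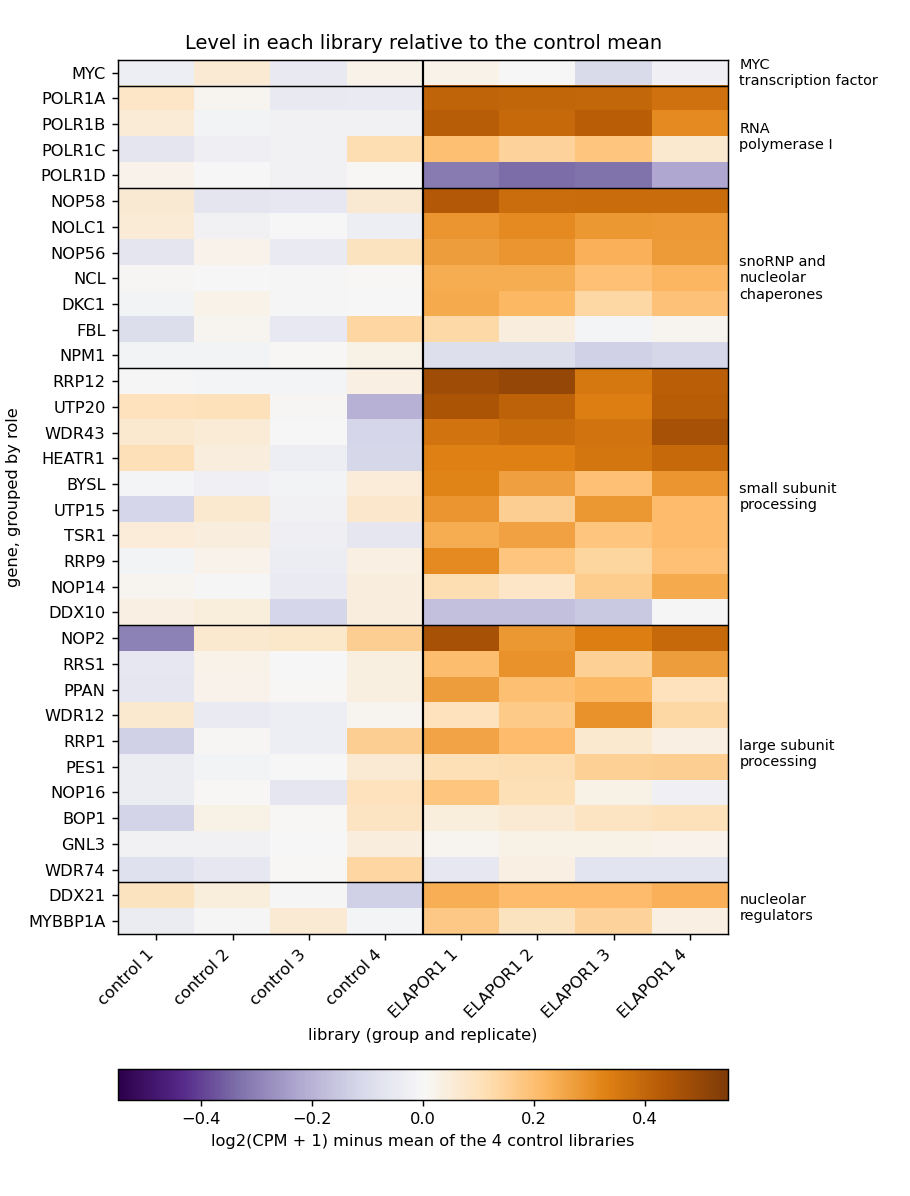
Each column is a library, each row a gene grouped by role, and the colour is log2(CPM + 1) minus the mean of the 4 control libraries for that gene. Most rows turn from pale in the 4 control columns to orange in the 4 ELAPOR1 columns, POLR1D and NPM1 turn to violet, and MYC stays pale throughout.

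MYC (ENSG00000136997.18, chr8:127735434-127741434 in GRCh38, plus strand) had 168, 179, 167 and 175 CPM in the control libraries and 175, 172, 160 and 170 CPM in the ELAPOR1 libraries. The ranges overlapped in part: 160 CPM in ELAPOR1 replicate 3 lay below all control libraries, and 179 CPM in control replicate 2 lay above all ELAPOR1 libraries. The means were 172 ± 5.92 and 169 ± 6.41 CPM (SD, n = 4 each), and the log2 fold change was -0.026 with a 95% confidence interval from -0.09 to 0.04 (adjusted p = 0.58 in edgeR). A two-sided exact permutation test of the 8 values gave p = 0.514, where the smallest that 4 against 4 libraries can give is 0.0286. These counts measure MYC mRNA and not MYC protein or its activity.

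RNA polymerase I was represented by 4 subunits, of which 2 rose, 1 fell and 1 was not called. POLR1A, the largest catalytic subunit (ENSG00000068654.16, chr2:86020216-86106155, minus strand), had 120, 115, 110 and 110 CPM in control and 151, 150, 150 and 147 CPM in ELAPOR1 libraries, a log2 fold change of 0.40 (SE 0.0362, adjusted p = 5.0e-11 in edgeR). POLR1B, the second-largest subunit, which completes the active site, had 65.0, 62.0, 61.8 and 61.8 CPM in control and 84.5, 82.6, 84.4 and 78.0 CPM in ELAPOR1 libraries, a log2 fold change of 0.39 (SE 0.0431, adjusted p = 2.8e-09 in edgeR). For both catalytic subunits every ELAPOR1 library was above every control library. POLR1C, a subunit that RNA polymerase I shares with RNA polymerase III, had 24.7, 25.3, 25.5 and 28.0 CPM in control and 29.9, 28.7, 29.4 and 27.1 CPM in ELAPOR1 libraries. Its groups overlapped and it was not called (log2 fold change 0.15, SE 0.0646, adjusted p = 0.054 in edgeR).

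POLR1D moved the other way. It encodes the partner of POLR1C in the assembly platform of RNA polymerases I and III (ENSG00000186184.17, chr13:27620742-27744237, plus strand). Its level was 65.1, 64.1, 63.2 and 64.2 CPM in control and 51.4, 50.6, 50.9 and 54.7 CPM in ELAPOR1 libraries, a log2 fold change of -0.30 (SE 0.0457, adjusted p = 1.3e-06 in edgeR). All 4 ELAPOR1 libraries were below all 4 control libraries, and ELAPOR1 replicate 4 was the highest of them. The ratio of POLR1A to POLR1D counts was 1.77 ± 0.0590 in control and 2.88 ± 0.133 in ELAPOR1 libraries, whereas that of POLR1A to POLR1B was 1.81 ± 0.0430 and 1.82 ± 0.0498 (SD, n = 4 each). Counts per gene sum all transcripts of POLR1D, and its isoforms were not separated.

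**Figure D3:**
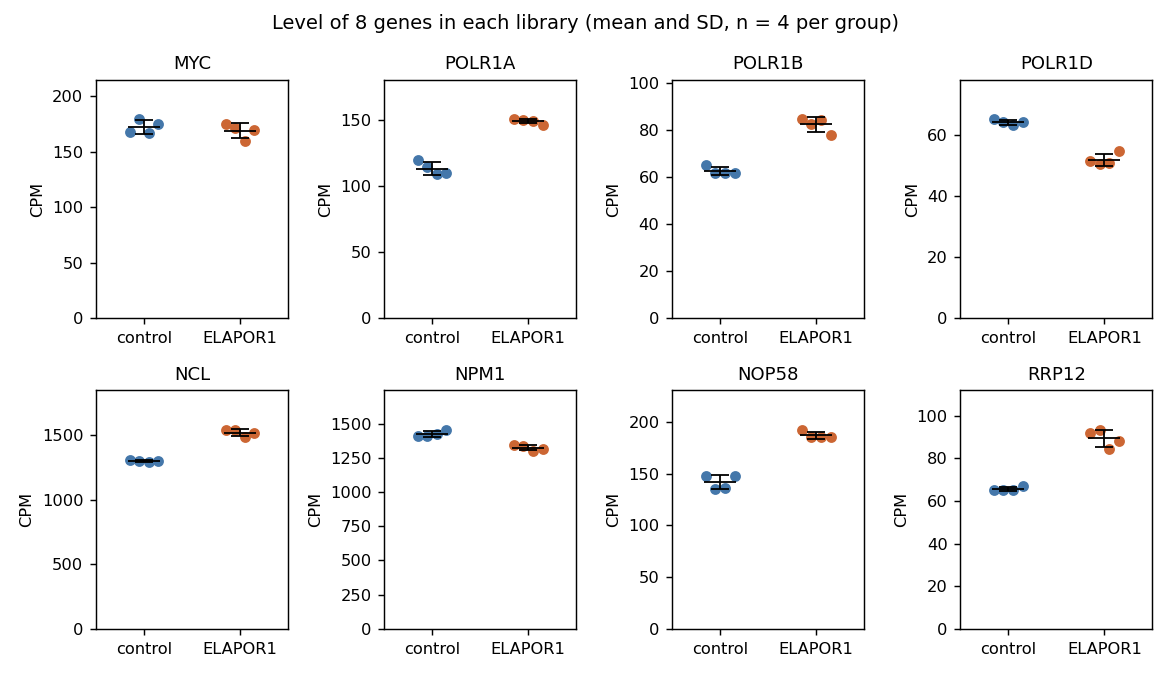
CPM on the vertical axis, from 0, for 8 genes in the control and ELAPOR1 libraries; each point is a library and bars are the mean and SD of 4 libraries. MYC overlaps between groups, POLR1A, POLR1B, NCL, NOP58 and RRP12 lie higher in all 4 ELAPOR1 libraries, and POLR1D and NPM1 lie lower in all 4.

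Of the 7 snoRNP proteins and nucleolar chaperones, 5 rose, NPM1 fell and FBL was not called. NOP58, a core protein of the box C/D snoRNPs that guide methylation of ribosomal RNA, had 148, 135, 136 and 148 CPM in control and 192, 185, 185 and 185 CPM in ELAPOR1 libraries (log2 fold change 0.40, SE 0.0355, adjusted p = 3.0e-11 in edgeR). Its partner in the same particle, NOP56, rose from 215 ± 10.7 to 259 ± 4.30 CPM (mean ± SD of 4 libraries each), which is a log2 fold change of 0.27 (adjusted p = 3.7e-08 in edgeR). FBL, the methyltransferase of these particles, had 171, 183, 176 and 200 CPM in control and 199, 188, 181 and 184 CPM in ELAPOR1 libraries. Control replicate 4 was above all ELAPOR1 libraries, and the log2 fold change was 0.042 (SE 0.0414, adjusted p = 0.43 in edgeR). Without that library FBL was called higher (log2 fold change 0.090, adjusted p = 0.033 in edgeR, and 0.0046 to 0.92 over the alternatives). These 3 of the particle's proteins thus differed in their values, though differences between genes in response were not tested.

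DKC1, the pseudouridine synthase of the box H/ACA snoRNPs, rose from 122 ± 1.40 to 140 ± 4.74 CPM (log2 fold change 0.20, adjusted p = 1.9e-05 in edgeR). NOLC1, a chaperone of snoRNPs in the nucleolus and Cajal bodies, had 373, 355, 359 and 352 CPM in control and 439, 447, 439 and 438 CPM in ELAPOR1 libraries (log2 fold change 0.29, SE 0.0286, adjusted p = 2.2e-10 in edgeR). A further 28 rows of the table were snoRNA genes that lie inside the 34 genes, and all were at 0 counts in every library. Whether the libraries and the counting could capture snoRNAs was not tested, so these zeros do not show that the cells lacked them.

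NCL and NPM1, the most abundant of the 34 genes, went in opposite directions. NCL encodes nucleolin, which binds nascent ribosomal RNA, and had 1307, 1298, 1294 and 1300 CPM in control and 1539, 1539, 1486 and 1515 CPM in ELAPOR1 libraries (log2 fold change 0.23, SE 0.0251, adjusted p = 3.8e-09 in edgeR). NPM1 encodes nucleophosmin, a histone and ribosome chaperone of the outer nucleolus, and had 1410, 1410, 1427 and 1452 CPM in control and 1341, 1338, 1301 and 1316 CPM in ELAPOR1 libraries (log2 fold change -0.11, SE 0.0253, adjusted p = 8.6e-04 in edgeR). Neither gene overlapped between groups. The ratio of NCL to NPM1 counts was 0.926, 0.921, 0.906 and 0.895 in control and 1.15, 1.15, 1.14 and 1.15 in ELAPOR1 libraries, below 1 in every control library and above 1 in every ELAPOR1 library. A ratio of counts is not a ratio of molecules, since the transcripts differ in length. NPM1 has 46 pseudogene rows in the table, whose summed counts were 0.753% to 0.900% of those of NPM1 in a library.

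Small subunit processing was the role with the most calls: 9 of 10 factors rose, with CPM that did not overlap between groups, and DDX10 fell. Among the 6712 genes at least as abundant as the lowest of the 34, 31.2% were called higher and 27.7% were higher without overlap. Differences between roles were not tested. HEATR1, UTP15 and WDR43 belong to the t-UTP subcomplex (UTP-A), which joins transcription of the precursor to its first processing. WDR43 had 151, 150, 144 and 133 CPM in control and 186, 189, 186 and 199 CPM in ELAPOR1 libraries (log2 fold change 0.39, SE 0.0376, adjusted p = 1.6e-10 in edgeR). HEATR1 had 135, 129, 122 and 116 CPM in control and 158, 158, 161 and 165 CPM in ELAPOR1 libraries (log2 fold change 0.35, SE 0.0389, adjusted p = 3.0e-09 in edgeR). UTP15 rose from 34.3 ± 2.14 to 40.5 ± 1.81 CPM (log2 fold change 0.24, adjusted p = 9.0e-04 in edgeR). All 3 factors of the subcomplex that were listed were therefore called higher.

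The largest rises of the 34 genes were those of RRP12 and UTP20. RRP12, a factor for maturation and nuclear export of pre-ribosomes (ENSG00000052749.13, chr10:97356358-97426076, minus strand), had 65.4, 65.1, 65.2 and 67.2 CPM in control and 91.9, 93.3, 84.4 and 88.2 CPM in ELAPOR1 libraries. This is a log2 fold change of 0.45 (SE 0.0425, adjusted p = 1.4e-10 in edgeR), or 1.36-fold. UTP20, a large scaffold protein of the small subunit processome, had 71.2, 71.5, 66.8 and 57.7 CPM in control and 91.5, 88.8, 84.4 and 89.9 CPM in ELAPOR1 libraries, a log2 fold change of 0.41 (SE 0.0521, adjusted p = 2.6e-07 in edgeR). Control replicate 4 was the lowest library for UTP20, WDR43 and HEATR1. Without it their log2 fold changes were 0.35, 0.36 and 0.32, each still called.

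Of the remaining small subunit factors, RRP9 recognises the U3 snoRNA, NOP14 acts in the processome, BYSL in late assembly, and TSR1 holds the maturing subunit in the cytoplasm. Their log2 fold changes were 0.22 for RRP9, 0.15 for NOP14, 0.28 for BYSL and 0.23 for TSR1, with edgeR adjusted p-values from 1.2e-05 (TSR1) to 0.0044 (RRP9). DDX10, an RNA helicase of the same pathway, had 68.2, 68.7, 61.4 and 68.6 CPM in control and 59.1, 59.1, 60.0 and 66.3 CPM in ELAPOR1 libraries. Its groups overlapped through ELAPOR1 replicate 4 and control replicate 3 (log2 fold change -0.13, SE 0.0488, adjusted p = 0.036 in edgeR). The call was lost under DESeq2's Wald test, total count scaling and the stricter threshold, and when control replicate 2 or 4 or ELAPOR1 replicate 1, 2 or 3 was left out (adjusted p up to 0.113 over the alternatives).

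Among 10 large subunit factors 5 rose (NOP2, RRS1, PPAN, WDR12 and PES1) and 5 were not called (RRP1, NOP16, BOP1, GNL3 and WDR74). The PeBoW complex, which PES1, BOP1 and WDR12 form and which is needed to process the precursor of large subunit RNA, was called for 2 of its 3 members. WDR12 rose from 65.1 ± 2.30 to 73.6 ± 4.60 CPM (log2 fold change 0.17, adjusted p = 0.0025 in edgeR) and PES1 from 120 ± 3.40 to 131 ± 2.25 CPM (log2 fold change 0.13, adjusted p = 0.0022 in edgeR; SD, n = 4 each). BOP1 had 146, 163, 160 and 169 CPM in control and 164, 166, 169 and 171 CPM in ELAPOR1 libraries, with overlap between the groups and a log2 fold change of 0.072 (SE 0.0372, adjusted p = 0.12 in edgeR). BOP1 was called higher without control replicate 4 (log2 fold change 0.10, adjusted p = 0.018 in edgeR) and after removal of trends with GC content and length (0.16, adjusted p = 9.4e-06 in edgeR), and its adjusted p reached 0.54 at most over the alternatives.

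NOP2, a methyltransferase of large subunit RNA (ENSG00000111641.11, chr12:6556863-6568691, minus strand), had 73.1, 94.4, 95.1 and 101 CPM in control and 124, 110, 114 and 119 CPM in ELAPOR1 libraries. Control replicate 1 was the lowest library, and the log2 fold change of 0.37 had the largest standard error of the 34 genes (0.101, adjusted p = 0.022 in edgeR). A row named AC006064.6 lies on the same strand and shares 2550 exon bases with NOP2, and it took 27.2% of the joint counts in control replicate 1 and 6.04% to 14.9% in the other 7 libraries. Added together, both rows had 101, 110, 103 and 114 CPM in control and 132, 129, 129 and 133 CPM in ELAPOR1 libraries, which gave a log2 fold change of 0.29 with an edgeR adjusted p of 1.3e-07. The call for NOP2 alone was lost without ELAPOR1 replicate 4 (edgeR adjusted p = 0.055, and 1.3e-07 at the lowest over the alternatives). RRS1, which helps to bring the 5S particle into the large subunit, had a log2 fold change of 0.24 (adjusted p = 1.6e-05 in edgeR). PPAN had a log2 fold change of 0.20 (adjusted p = 8.4e-04 in edgeR), and 0.20 again when the read-through row PPAN-P2RY11 was added.

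The 5 large subunit factors that were not called all overlapped between groups. GNL3, the GTP-binding protein nucleostemin, had 95.3, 95.4, 96.6 and 99.7 CPM in control and 97.4, 98.5, 98.6 and 98.0 CPM in ELAPOR1 libraries, and the 95% confidence interval of its log2 fold change ran from -0.05 to 0.09. WDR74 had a log2 fold change of -0.043 (95% confidence interval -0.14 to 0.05), NOP16 of 0.077 (-0.02 to 0.18) and RRP1 of 0.15 (0.01 to 0.28, adjusted p = 0.083 in edgeR). RRP1 and POLR1C were called higher without control replicate 4 (edgeR adjusted p-values 0.016 and 0.019) or without ELAPOR1 replicate 4 (edgeR adjusted p-values 0.046 and 0.038), and their adjusted p reached 0.29 and 0.15 over the alternatives. NOP16 shares exon bases with HIGD2A on the opposite strand, which fell by 0.41 on the log2 scale (adjusted p = 6.9e-08 in edgeR), and use of strand in counting is not given in the sources used here, so reads of such a pair cannot be told apart. In all, 13 of the 34 genes overlap another row with a mean of at least 1 CPM. The largest overlaps on the opposite strand were those of HEATR1 with LGALS8 (2095 exon bases), TSR1 with SRR (1146) and NOP14 with NOP14-AS1 (605). LGALS8, SRR and NOP14-AS1 were not called.

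The nucleolar regulators were DDX21 and MYBBP1A. DDX21, a helicase that couples RNA polymerase I transcription to processing, had 442, 428, 412 and 378 CPM in control and 489, 479, 479 and 487 CPM in ELAPOR1 libraries (log2 fold change 0.22, SE 0.0350, adjusted p = 7.9e-06 in edgeR). MYBBP1A, which binds MYB and takes part in nucleolar stress signalling, had 84.4, 86.5, 90.6 and 86.3 CPM in control and 98.3, 92.7, 96.2 and 88.8 CPM in ELAPOR1 libraries. Its groups overlapped, and its log2 fold change of 0.11 (SE 0.0412, adjusted p = 0.027 in edgeR) lost the call in 5 alternatives, among them those without control replicate 1 or 2 and without ELAPOR1 replicate 1 or 3 (adjusted p up to 0.12 over the alternatives).

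Per kilobase of exon, the order of levels was led by the same genes in both groups. NPM1 stood at 372 ± 5.16 CPM per kb in control and 346 ± 4.91 in ELAPOR1 libraries, followed by NCL at 188 ± 0.775 and 219 ± 3.61 and NOLC1 at 90.6 ± 2.36 and 111 ± 1.03 CPM per kb (SD, n = 4 each). FBL (84.1 ± 5.93) and DDX21 (82.6 ± 5.54) were neighbours in control that differed by less than their spread. MYC was the sixth in control at 57.4 ± 1.97 CPM per kb and the eighth in ELAPOR1 libraries at 56.4 ± 2.14, next to NOP58 (56.6 ± 1.04) and RRS1 (56.5 ± 2.55), from which it did not differ beyond the spread. The lowest were POLR1C at 4.66 ± 0.267 CPM per kb in control and POLR1D at 4.63 ± 0.169 in ELAPOR1 libraries. Levels per kilobase rest on the union of annotated exons, which is longer than most expressed transcripts. The excess differs between genes: the union and the longest transcript had 11210 and 4592 bases for POLR1D, but 3970 and 3967 for NOLC1. The order of levels therefore depends on the length used.

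Promoter windows from RefSeq (build GRCh38.p14), each 250 bases before to 50 bases after an annotated start, were found for 28 of the 34 genes, with 35 windows in all, and none were found for BOP1, MYC, NOLC1, NOP58, RRP12 and RRS1. The E-box letters CACGTG, which read the same on both strands, were present in 11 of the 35 windows (31.4%), against 7.26% of all 35116 windows and 9.35% of the 14420 windows of tested genes. By gene, the letters occurred for 11 of 28 (39.3%), against 12.7% of tested genes with a window. They were present for 9 of the 19 genes called higher that had a window, for 2 of the 6 not called (FBL and GNL3) and for none of the 3 called lower. The related letters CACGCG, searched on both strands, occurred in 10 of the 35 windows (28.6%) and in 17.4% of those of tested genes. They were present for 4 of the 19 genes called higher (21.1%, against 22.8% of tested genes with a window), for 3 of the 6 not called and for all 3 called lower. A match describes the letters in a window and does not show that a factor binds there.

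Windows of 3 genes that rose and hold the E-box, and of POLR1D, which fell and does not, are shown 5′ to 3′ on the strand of the gene, with CACGTG in capitals. They lie at chr12:101279855-101280154 (UTP20, plus strand), chr2:28894417-28894716 (WDR43, plus strand), chr12:6568242-6568541 (NOP2, minus strand) and chr13:27620493-27620792 (POLR1D, plus strand, the first of 2 windows).
UTP20: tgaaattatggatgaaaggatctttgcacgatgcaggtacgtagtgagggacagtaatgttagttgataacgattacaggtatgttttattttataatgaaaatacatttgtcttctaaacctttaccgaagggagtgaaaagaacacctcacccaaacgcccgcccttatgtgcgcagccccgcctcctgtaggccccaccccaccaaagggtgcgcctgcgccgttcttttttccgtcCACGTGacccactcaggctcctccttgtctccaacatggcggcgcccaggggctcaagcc
WDR43: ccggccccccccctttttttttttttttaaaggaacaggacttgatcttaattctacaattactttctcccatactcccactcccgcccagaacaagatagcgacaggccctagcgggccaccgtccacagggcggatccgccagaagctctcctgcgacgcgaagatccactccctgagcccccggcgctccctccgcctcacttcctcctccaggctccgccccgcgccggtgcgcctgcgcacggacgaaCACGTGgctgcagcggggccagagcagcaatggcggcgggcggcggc
NOP2: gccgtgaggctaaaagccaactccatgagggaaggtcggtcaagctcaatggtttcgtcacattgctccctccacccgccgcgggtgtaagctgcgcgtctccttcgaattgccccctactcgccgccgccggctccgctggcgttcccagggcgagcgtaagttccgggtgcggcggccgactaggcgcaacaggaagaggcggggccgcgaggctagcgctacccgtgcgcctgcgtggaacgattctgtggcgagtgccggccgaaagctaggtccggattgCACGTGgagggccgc
POLR1D: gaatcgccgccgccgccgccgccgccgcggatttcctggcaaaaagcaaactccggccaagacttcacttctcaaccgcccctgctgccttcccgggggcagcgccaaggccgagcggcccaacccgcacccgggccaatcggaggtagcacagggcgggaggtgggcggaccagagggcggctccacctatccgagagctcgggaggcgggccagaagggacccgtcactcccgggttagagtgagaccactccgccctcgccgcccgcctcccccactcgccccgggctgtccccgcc
The first base of the E-box is base 241 of the window in UTP20, 254 in WDR43 and 286 in NOP2, counted from 1 at the 5′ end, so it lies just before the annotated start in UTP20 and just after it in the other windows. The levels of UTP20, WDR43 and NOP2 were higher in all 4 ELAPOR1 libraries than in any control library, and that of POLR1D was lower. These windows are chosen examples. Only 9 of the 19 genes called higher with a window held CACGTG, and POLR1A and POLR1B, which rose, had no copy in their windows. A link between the letters and the direction of change was not tested.

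Position along the chromosomes was examined, since 6 of the 34 genes (NOP58, POLR1A, WDR43, POLR1B, NCL and WDR12) lie on chromosome 2 and all 6 rose. Tested genes on chromosome 2 showed 0.10 as their median log2 fold change, and 35.8% of them were called higher. The 28 genes elsewhere had a median log2 fold change of 0.18, with 17 called higher and 3 lower. Among the 20 nearest tested genes of each of the 34, 10 on either side, the median log2 fold change ran from -0.16 to 0.19. In 29 of 34 cases the gene lay above the median of its neighbours, by 0.21 at the median of the 34 differences. NCL exceeded its neighbours by 0.072 and NOP14 by 0.057, so these values were close to those of their surroundings, while UTP20 exceeded them by 0.53 and NOP2 by 0.50. The value for NOP2 is that of its own row. With the counts of AC006064.6 added its log2 fold change was 0.29 and not 0.37, so part of its excess rests on the split of counts between these rows. NOP58 and WDR12 were among each other's neighbours.

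**Figure D4:**
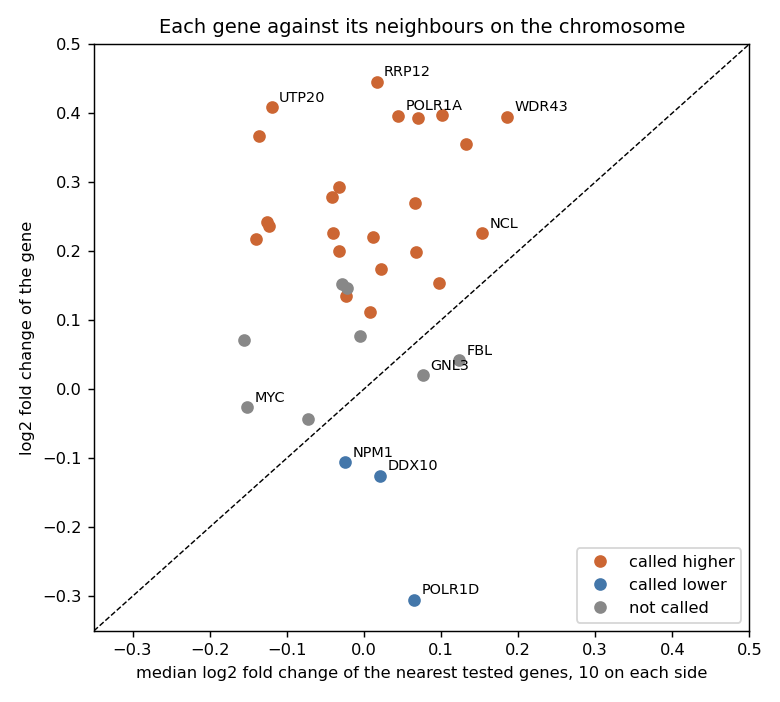
Log2 fold change of each of the 34 genes (vertical axis) against the median log2 fold change of its 20 nearest tested genes (horizontal axis), with the line of equal values dashed and colours for the call. Points lie above the line for 29 genes, and UTP20, RRP12 and NOP2 stand far above it. NOP2 is shown without the counts of AC006064.6.

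Across the 34 genes, log2 fold change and length of the longest transcript had a Spearman rho of 0.36, against 0.14 across all tested genes, and the rho with GC content was -0.13 and with mean CPM 0.11. These describe genes within the same 8 libraries and are not replicates of one another. After removal of trends with GC content and length, 28 of the 34 genes were called higher and 3 lower. FBL, POLR1C, BOP1, NOP16 and RRP1 were among those called higher. Calls also became more common over all tested genes, at 6485 with this removal and 6193 without it. Of these calls 49.96% and 50.5% were higher.

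A list of 117 other ribosome biogenesis genes gave values of the same kind: 68 were called higher and 9 lower, with a median log2 fold change of 0.16, where all tested genes had 22.6% called higher and 22.1% lower and the 6712 more abundant ones 31.2% and 26.8%. The same shares stand beside the counts by role that follow. Within the list of 117, RNA polymerase I genes counted 6 higher and 1 lower of 11. RRN3, the initiation factor that brings RNA polymerase I to the ribosomal DNA promoter, rose from 45.2 ± 1.29 to 70.4 ± 2.19 CPM (mean ± SD of 4 libraries each), which is a log2 fold change of 0.64 (SE 0.0464, adjusted p = 2.1e-13 in edgeR). Next were POLR1G, a further subunit of the polymerase listed as CD3EAP, at 0.42 and the upstream binding factor UBTF at 0.36 (edgeR adjusted p-values 3.9e-10 and 1.3e-09). The 20 nearest genes of UBTF and RRN3 had median log2 fold changes of 0.33 and 0.34, so for UBTF the value was near that of its surroundings. TAF1D, a subunit of the promoter selectivity factor, was the gene of this role that fell (log2 fold change -0.34, adjusted p = 2.4e-10 in edgeR), and it was picked out after its value was seen.

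Small subunit genes of this list counted 29 higher and 1 lower of 45, and the largest changes were those of NOL6 (log2 fold change 0.64, adjusted p = 5.0e-15 in edgeR), MPHOSPH10 (0.42, adjusted p = 4.6e-09 in edgeR) and UTP4 (0.40, adjusted p = 4.4e-11 in edgeR), all of them in the processome. Large subunit genes counted 28 higher and 5 lower of 49. NOP53, which guides the exosome to large subunit precursors, fell from 194 ± 15.3 to 128 ± 5.19 CPM (log2 fold change -0.60, adjusted p = 3.0e-09 in edgeR). URB2 and NIP7 rose by 0.54 and 0.53 on the log2 scale (edgeR adjusted p-values 5.9e-10 and 1.1e-13). The 20 nearest genes had median log2 fold changes of 0.28 for UTP4, 0.24 for NIP7 and 0.22 for MPHOSPH10. They were 0.11 for URB2, 0.083 for NOP53 and 0.054 for NOL6. UTP4 thus exceeded its surroundings by only 0.12. snoRNP genes counted 5 higher and 2 lower of 12, with a median of 0.033, and here SHQ1, an assembly factor of DKC1, had a log2 fold change of 0.33, RUVBL2, an ATPase of snoRNP assembly, of 0.24 and ZNHIT6 of 0.23 (edgeR adjusted p = 0.0075, 3.4e-07 and 0.0011). The partners of DKC1 in the H/ACA particle that fell were NHP2 and NOP10, both at -0.17 (edgeR adjusted p-values 2.8e-04 and 0.0011, named after their values were seen).

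Partners and regulators of MYC showed no common direction. Of 18 genes listed 17 were tested, MYCN being below the filter, and 4 were called higher and 6 lower, with a median log2 fold change of -0.0030. The 10 called of 17 are near the background of 58.0% called among the 6712 more abundant genes and above the 44.7% of all tested genes. PIM1, a kinase that acts with MYC, fell from 70.9 ± 2.98 CPM in control to 38.9 ± 2.26 CPM (log2 fold change -0.86, SE 0.0508, adjusted p = 1.1e-15 in edgeR). MXI1 and MXD4, which compete with MYC for MAX and repress its sites, fell by 0.69 and 0.44 on the log2 scale (edgeR adjusted p-values 5.6e-10 and 2.1e-06). MXD1, of the same class of MAX-binding repressors and named after its value was seen, rose (log2 fold change 0.17, adjusted p = 0.013 in edgeR), and MXD3 was not called (log2 fold change -0.046, adjusted p = 0.73 in edgeR).

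Of 40 widely cited MYC targets outside ribosome biogenesis, 24 were called higher and 7 lower, with a median log2 fold change of 0.14, where 44.7% of all tested genes were called (22.6% higher) and 58.0% of the 6712 more abundant ones (31.2% higher). CCND2, a D-type cyclin, had 9.81, 9.91, 10.7 and 9.88 CPM in control and 3.44, 3.53, 3.46 and 5.54 CPM in ELAPOR1 libraries, the largest change of this list (log2 fold change -1.32, SE 0.137, adjusted p = 8.7e-10 in edgeR). E2F2, a transcription factor of S phase entry, rose from 7.53 ± 0.785 to 12.9 ± 0.594 CPM (log2 fold change 0.78, adjusted p = 8.9e-08 in edgeR). PHB1, prohibitin of the inner mitochondrial membrane, listed as PHB, rose from 117 ± 4.78 to 178 ± 5.92 CPM (log2 fold change 0.61, adjusted p = 1.5e-15 in edgeR). The 20 nearest genes of PHB1 had a median log2 fold change of 0.18, those of E2F2 0.015 and those of CCND2 -0.064. Called genes in these lists therefore lay in both directions, and differences between the lists were not tested.

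**Figure D5:**
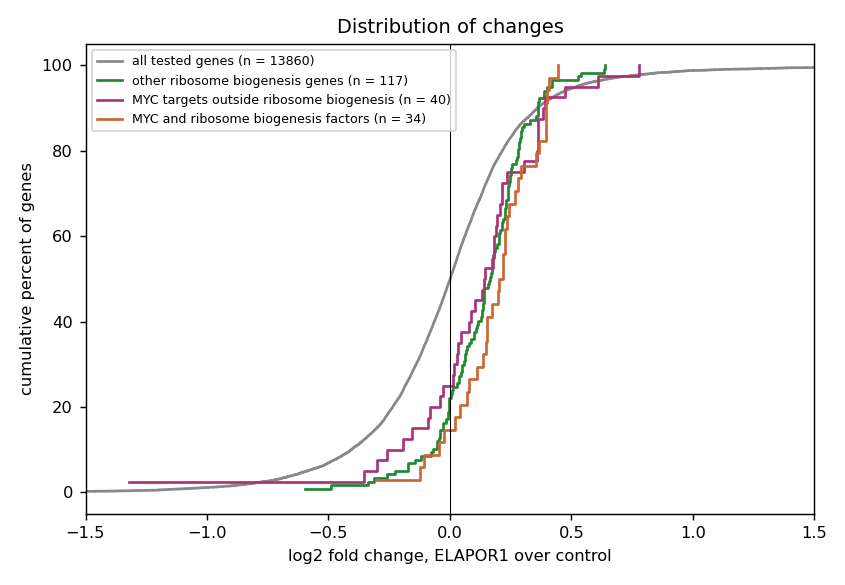
Cumulative percent of genes (vertical axis) by log2 fold change, ELAPOR1 over control (horizontal axis), for all tested genes, 117 other ribosome biogenesis genes, 40 MYC targets outside ribosome biogenesis and the 34 genes. Medians are 0.00087, 0.16, 0.14 and 0.21 in that order, and the curve of all tested genes extends farther in both directions than that of the 34 genes.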

How the data were processed

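RNA of 4 control and 4 ELAPOR1 libraries was sequenced on an Illumina NextSeq instrument, per the labels' protocols. The authors deposited 1 table of expected counts per gene without scaling between libraries, and the submitters' processing notes name cutadapt, STAR, RSEM, DESeq2 and hg38. Their versions, the annotation release and use of strand are not given in the sources used here.

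Rounded expected counts entered edgeR 4.0.16 under R 4.3.3 (filterByExpr, TMM scaling, robust quasi-likelihood test, all 8 libraries, no covariate), with Benjamini-Hochberg adjustment over 13860 genes and a threshold of 0.05. The standard error is the size of the log2 fold change divided by the square root of F. Alternatives used limma 3.58.1 and DESeq2 1.42.0. Replicates differed by more than sampling noise (chi-square per degree of freedom 1.94 to 6.12), so each library counted once. Scripts were tested on simulated data. Coordinates, exon length and GC content come from GENCODE release 29 (GRCh38).

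The 34 genes and the other lists were chosen with earlier results of these data known. Named genes are all 34, ELAPOR1 and those overlapping rows of at least 1 CPM that were taken to bear on a listed gene. In each list, by role for ribosome biogenesis, the 3 called genes of largest change with a mean of at least 5 CPM are named. The marker lists are those in the results, and 1 immune marker and the summed level of its list are not reported here.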

Additional observations from a re-analysis of the deposited data

Results flagged for a closer look

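In 14 of 118 groups of 4 libraries examined, the highest or lowest library was separated from the other 3 by a gap above Dixon’s 95% critical value, where chance gives about 1 in 20, or 5.9. Among the 34 genes these were NOP58 in ELAPOR1 replicate 1 (192 CPM, others at 185 CPM), POLR1B in control replicate 1 (65.0 CPM, others 61.8 to 62.0 CPM), BYSL in control replicate 4 (45.5 CPM, others 43.2 to 43.6 CPM) and RRP12 in control replicate 4 (67.2 CPM, others 65.1 to 65.4 CPM). DDX10 stood apart in both groups, at 61.4 CPM in control replicate 3 (others 68.2 to 68.7 CPM) and at 66.3 CPM in ELAPOR1 replicate 4 (others 59.1 to 60.0 CPM), and each lies toward the other group. WDR74 stood apart in ELAPOR1 replicate 2 at 66.8 CPM (others 62.0 to 62.7 CPM). The ratio of POLR1A to POLR1D counts was 2.69 in ELAPOR1 replicate 4 and 2.93 to 2.97 in the other ELAPOR1 libraries.

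Among the genes of the other lists, MPHOSPH10 had 60.5 CPM in ELAPOR1 replicate 4 (others 62.3 to 62.6 CPM), UTP4 had 135 CPM in ELAPOR1 replicate 3 (others at 131 CPM), NIP7 had 85.4 CPM in control replicate 3 (others 89.6 to 90.0 CPM) and PIM1 had 35.5 CPM in ELAPOR1 replicate 2 (others 39.7 to 40.3 CPM). CCND2 had 10.7 CPM in control replicate 3 (others 9.81 to 9.91 CPM) and 5.54 CPM in ELAPOR1 replicate 4 (others 3.44 to 3.53 CPM). Its log2 fold change was -1.53 without ELAPOR1 replicate 4. ELAPOR1 replicate 4 was the library in 4 of the 14 cases.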

How the results depend on the processing

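The counts of called genes (all tested genes, the 34 genes higher and lower, and the other 3 lists as wholes) and the median of the 34 genes stayed within 1.5 times their values, and MYC stayed uncalled, under the other scalings, tests, filters, the threshold of 0.01, the correction for GC content and length, the addition of read-through rows and the omission of each library in turn. Of the 26 called genes 23 kept direction and call in every alternative, and the exceptions were DDX10, MYBBP1A and NOP2. WDR74, which was not called, changed sign after removal of GC and length trends (0.0064) and without control replicate 4 (0.0039), with -0.076 to 0.0039 over the libraries left out in turn, and the cause was not tested. Leaving out each library in turn gave 22 to 27 of the 34 genes called higher and 2 to 3 lower, 27 being the count without control replicate 4. Over all tested genes 2805 to 3125 were then called higher, against 3127 with all 8 libraries. The log2 fold changes of MYC ran from -0.043 to -0.00082 over these omissions. Total count scaling gave 26 higher and 2 lower. It called 6226 tested genes in all, 56.1% of them higher, against 50.5% of the 6193 calls with TMM scaling. The median of all tested genes was 0.022 with total count scaling and -0.00051 with DESeq2 size factors. Medians of the other lists and their splits by role or direction were not recomputed. Same-numbered libraries did not deviate together (correlations of -0.021 to 0.033, against -0.068 to 0.078 for the other pairs). The labels do not say whether the numbers pair libraries, and such small correlations cannot exclude it. A replicate block called 23 of the 34 genes higher and 3 lower and 5926 tested genes in all, against 6193 without it. Each of the 34 genes had at least 401 counts in every library, and changes of uncalled genes within their intervals were not detectable.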

Other observations

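Within the 34 genes, the spread between libraries of a group was small: the coefficient of variation of CPM in control libraries ran from 0.413% for NCL to 13.4% for NOP2, with a median of 3.68%, against 4.40% over tested genes at or above the level of the lowest of the 34. The smallest change that was called among them was that of NPM1, at 0.11 in size on the log2 scale, and the largest that was not called was that of POLR1C, at 0.15.

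Of 5 listed large subunit genes that fell, NOP53 was followed by RSL24D1 (log2 fold change -0.49, adjusted p = 2.6e-13 in edgeR), NSA2 (-0.26, adjusted p = 4.8e-07 in edgeR), EFL1 (-0.23, adjusted p = 4.6e-04 in edgeR) and NMD3 (-0.12, adjusted p = 0.020 in edgeR). RSL24D1 and NSA2 join pre-ribosomes in the nucleus, NMD3 is the export adaptor of the large subunit, and EFL1 is a GTPase of its last maturation step in the cytoplasm. These genes were named after their values were seen.

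Among MYC network genes, MAX, the obligate partner of MYC, rose from 66.0 ± 1.18 to 73.9 ± 1.84 CPM (SD, n = 4 each; log2 fold change 0.17, adjusted p = 0.0017 in edgeR), and TRRAP, a scaffold that MYC recruits with histone acetyltransferases, rose from 117 ± 9.81 to 141 ± 7.34 CPM (log2 fold change 0.26, adjusted p = 3.7e-04 in edgeR). MNT and MXD1, repressors that also pair with MAX, went in opposite directions: MXD1 rose by 0.17 (adjusted p = 0.013 in edgeR) and MNT fell by 0.23 on the log2 scale (adjusted p = 0.0024 in edgeR). These too were picked out after their values were seen.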
